A study of Homo sapiens with 3 samples.

Results

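The 10 genes described here encode the alpha- and beta-tubulins of BxPC-3 cells, a long-established line grown from a human carcinoma of the pancreatic duct: 4 alpha genes (TUBA1A, TUBA1B, TUBA1C, TUBA4A) and 6 beta genes (TUBB, TUBB2A, TUBB2B, TUBB3, TUBB4B, TUBB6). They were taken by symbol from the 33694 features of 3 single-cell libraries, and all 10 were found. Of them, 8 reached a mean of 10 unique molecular identifiers (UMIs, each marking 1 captured transcript) per 1000000 UMIs (CPM) over the libraries, as did 7687 genes in all. TUBA1A and TUBB2B stayed below it.

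Line stocks stably carrying EGFP or mCherry were mixed in equal numbers and held in suspension, which lets epithelial cells enter one another (cell-in-cell structures, entosis). After sorting, cells with both colours formed the double-positive group and cells with a single colour the single-positive group. Parental cells were the reference, and the labels do not say whether they carried a fluorescent protein. The labels also leave unsaid at which step the cells were expanded and if the single-positive library mixed EGFP with mCherry cells. Each group had 1 library, made from trypsinized cells with a 5' droplet kit, so no difference between groups has a replicate check and no p-value is given.

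Cells were barcodes with at least 6500 UMIs: 2409 parental, 1291 single-positive and 1940 double-positive, with median depths of 23290, 38137 and 29963.5 UMIs. They held 97.7% to 98.0% of each library's UMIs, and the mitochondrial share was 0.974%, 1.22% and 2.06%. At most 6 barcodes were shared by a pair of libraries and 0 by all 3. All 9 epithelial markers lay above 10 CPM in every library (summed level 14407 to 15416 CPM), whereas no fibroblast, endothelial, immune, or neural or endocrine marker did. The single-positive library stood apart in its shallow cells: 251 cells, 19.4%, had under 15000 UMIs, and of those with 10000 to 15000 UMIs 55.7% were called G2M, against 22.1% in the parental and 22.6% in the double-positive library.

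Microtubules are hollow polymers of alpha- and beta-tubulin dimers. In a dividing cell they are taken down and rebuilt as the mitotic spindle, and taxanes, used against pancreatic carcinoma, bind the beta subunit. Vertebrates carry several genes for each subunit, the isotypes: TUBA1B, TUBA1C, TUBB and TUBB4B are common in proliferating cells, while TUBB3, TUBB2B and TUBA1A are best known from neurons. Tubulin messages are also destroyed on the ribosome when free dimers are plentiful, a feedback called autoregulation.

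The 4 members whose level differed most between cell cycle classes are shown here with the 250 bases before their RefSeq start (GRCh38.p14), because they fell into an earlier and a later pair described below. Capitals mark TTTGAA, the core of the cell cycle homology region (CHR), to which late cell cycle regulators are known to bind, and CCAAT, the box known to bind NF-Y, each on either strand. The stretches lie at chr12:49131396-49131645 on the minus strand (TUBA1B), chr6:30720102-30720351 on the plus strand (TUBB), chr12:49264832-49265081 on the plus strand (TUBA1C) and chr9:137241037-137241286 on the plus strand (TUBB4B).
TUBA1B: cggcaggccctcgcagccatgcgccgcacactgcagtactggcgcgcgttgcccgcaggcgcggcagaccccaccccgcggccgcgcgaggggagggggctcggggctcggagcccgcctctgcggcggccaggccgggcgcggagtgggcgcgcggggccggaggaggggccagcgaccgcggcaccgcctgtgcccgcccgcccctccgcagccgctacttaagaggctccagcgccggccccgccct
TUBB: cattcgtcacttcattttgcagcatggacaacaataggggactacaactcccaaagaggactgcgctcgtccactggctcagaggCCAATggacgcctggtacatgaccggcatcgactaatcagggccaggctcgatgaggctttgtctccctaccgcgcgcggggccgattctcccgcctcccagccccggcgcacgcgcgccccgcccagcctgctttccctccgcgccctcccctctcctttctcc
TUBA1C: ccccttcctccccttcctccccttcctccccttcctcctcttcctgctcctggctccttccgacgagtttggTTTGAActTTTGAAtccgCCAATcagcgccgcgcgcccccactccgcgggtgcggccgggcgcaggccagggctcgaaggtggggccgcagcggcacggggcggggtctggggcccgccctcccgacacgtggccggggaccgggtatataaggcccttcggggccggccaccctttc
TUBB4B: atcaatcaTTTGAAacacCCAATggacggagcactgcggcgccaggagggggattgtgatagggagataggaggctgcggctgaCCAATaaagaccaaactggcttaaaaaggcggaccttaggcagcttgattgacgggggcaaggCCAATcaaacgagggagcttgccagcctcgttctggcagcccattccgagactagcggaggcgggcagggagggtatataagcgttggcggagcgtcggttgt

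TUBA1C held 2 copies of TTTGAA, starting 178 and 170 bases before its start, and 1 CCAAT at 160. TUBB4B held 1 TTTGAA at 242 bases and 3 CCAAT at 232, 166 and 103. TUBB had 1 CCAAT at 165 and no TTTGAA, and TUBA1B had neither. In the windows nearest the annotated starts (250 bases before to 50 after) of all 10 members, TTTGAA occurred in 2, TUBA1C and TUBB4B, and CCAAT in 7. Among 35097 RefSeq promoter windows of this length, 15.2% held TTTGAA, 34.6% CCAAT and 5.90% both. A match describes the letters in the window and is neither a shown site nor a cause.

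Tubulin messages made up 0.472%, 0.563% and 0.483% of all UMIs in the parental, single-positive and double-positive libraries. TUBA1B was the highest member, at 1725 CPM in the parental library (95% Poisson interval 1715 to 1735), 2171 CPM in the single-positive (2159 to 2184) and 1810 CPM in the double-positive (1799 to 1820). It ranked 80 among the 23254 genes with a UMI. These and the other intervals cover counting error only, and a 5' UMI marks 1 transcript whatever its length, so levels were compared between genes without scaling for length.

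TUBA1C, the second alpha gene, stood at 1171, 1319 and 1163 CPM in the parental, single-positive and double-positive libraries. TUBB4B was the leading beta gene, at 993, 1133 and 1017 CPM in the same order. TUBB followed at 454, 596 and 474 CPM, and TUBA4A at 229, 259 and 229 CPM. The order of these 5 genes was the same in every library, and for each of them the single-positive library was the highest.

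The remaining beta genes were lower. TUBB6 had 54.1, 62.4 and 57.0 CPM in the parental, single-positive and double-positive libraries, and TUBB3 52.2, 56.4 and 47.3 CPM. In the parental library their intervals overlapped (52.3 to 55.9 CPM for TUBB6 and 50.4 to 54.0 CPM for TUBB3), so these neighbours in the order could not be told apart there. TUBB2A lay at 34.5, 31.7 and 30.3 CPM, and it was the single measured member with its highest level in parental cells.

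The members below 10 CPM were both of the neuronal kind. TUBA1A had 3.01, 3.67 and 2.68 CPM in cells, against 2.68, 3.51 and 4.58 CPM in barcodes with at most 100 UMIs, which hold mostly free RNA. The free RNA values rest on 2, 3 and 4 UMIs, and the cells' levels lay within their exact Poisson intervals. These levels cannot decide whether TUBA1A UMIs in cells were free RNA, since higher members also lay within such intervals. In the parental library TUBA4A had 229 CPM in cells (free RNA interval 199 to 269 CPM) and TUBA1C 1171 CPM (1060 to 1215 CPM). TUBB2B gave 13 UMIs in 5 parental cells, 0 in single-positive cells and 2 in 1 double-positive cell. With 3 counts taken as the limit, the count of 0 allows a level of up to 0.0595 CPM, and its exact 95% Poisson interval reaches 0.0731 CPM. For the summed tubulins, barcodes of free RNA held 4423, 4783 and 4221 CPM, below the cells of the same library.

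**Figure D1:**
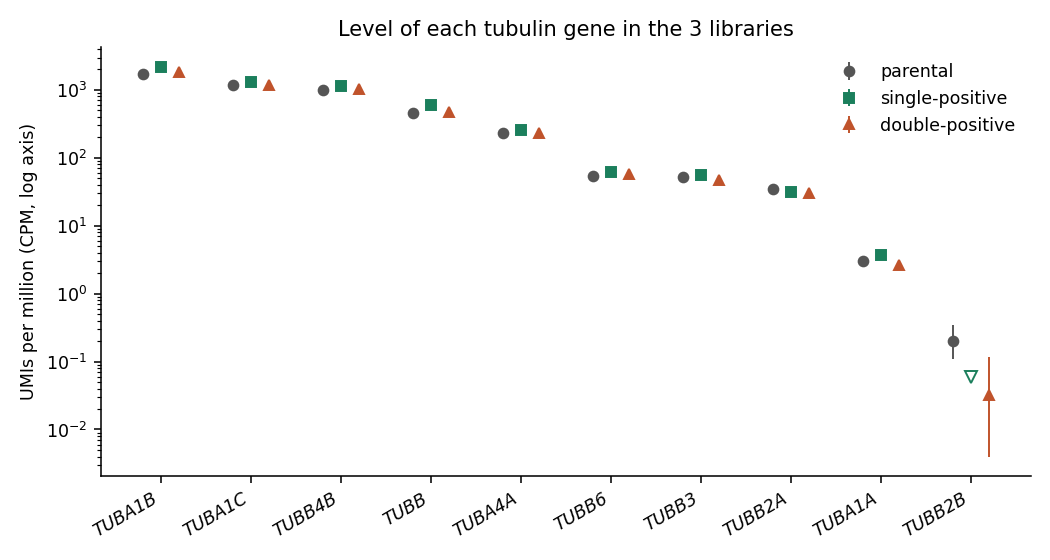
CPM on a log axis for each of the 10 tubulin genes, 1 symbol per library, with 95% Poisson intervals that are mostly smaller than the symbols; the open triangle is the level of 3 counts, taken as the limit for a count of 0 (0.0595 CPM). TUBA1B lies highest in all 3 libraries and TUBB2B lowest.

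Alpha genes gave 66.3%, 66.6% and 66.3% of tubulin UMIs in the parental, single-positive and double-positive libraries. Within the alpha genes TUBA1B took 55.2%, 57.9% and 56.5%, and TUBA1C 37.4%, 35.1% and 36.3%. Within the beta genes TUBB4B took 62.5%, 60.3% and 62.6%, and TUBB 28.6%, 31.7% and 29.1%. In the single-positive library the balance over all cells thus lay further towards TUBA1B and TUBB than in the others, by about 1 to 3 percentage points, while the exact binomial intervals of these shares were under 1 point wide. These shares mix phases. TUBA1B took 47.8%, 49.6% and 47.1% in G1 cells, 62.0%, 63.3% and 62.1% in S and 55.4%, 57.3% and 57.3% in G2M. TUBB took 26.5%, 27.6% and 25.5% in G1, 33.8%, 35.5% and 34.3% in S and 27.3%, 30.9% and 28.1% in G2M. Among single cells thinned to 6500 UMIs, the median cell held 26, 31 and 26 tubulin UMIs, and the range from the 10th to the 90th percentile was 10 to 57, 12 to 61 and 10 to 56.

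TUBB3 transcripts were seen in 55.3%, 65.6% and 57.9% of parental, single-positive and double-positive cells. After thinning to equal depth the shares were 23.2%, 25.6% and 21.8%. Free RNA held 40.3, 43.3 and 45.8 CPM of TUBB3, close to the levels in cells, and the libraries hold no second cell type that should lack the gene. The summed neural or endocrine markers (MAP2, SYP, CHGA, ENO2, STMN2, RBFOX3) were at 4.25, 4.52 and 3.60 CPM, with none of 6 at 10 CPM.

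The sort addressed how cells marked by both colours differ from those of a single colour. Summed tubulin was lower in double-positive than in single-positive cells, by a log2 ratio of -0.22 (exact conditional binomial interval -0.23 to -0.21). Of the 7687 genes 43.5% lay above 0, while all 8 measured members lay below 0, with a median of -0.18. TUBB was the lowest of them at -0.33 (-0.36 to -0.31) and the single member lower by 0.32 or more on the log2 scale, the size counted between libraries, which 2.68% of the 7687 genes reached. TUBA1B stood at -0.26, TUBB3 at -0.25, TUBA1C and TUBA4A at -0.18, TUBB4B at -0.16 and TUBB6 at -0.13. The sizes of single genes moved with the setting: TUBB3 gave -0.098 and TUBA1C -0.11 without cells under 0.5% mitochondrial UMIs, and in G1 cells TUBB3 gave -0.42 and TUBA1C -0.10. For TUBB2A, at -0.062, the interval (-0.16 to 0.03) included 0. The median of all measured genes was -0.023.

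Between single-positive and parental cells the signs were opposite, with the single-positive library shared by both comparisons. Summed tubulin was 0.26 higher on the log2 scale in single-positive cells. Of all genes 62.8% lay above 0, as did 7 of 8 members, with a median of 0.18 against 0.049 for all genes. TUBB at 0.39 (0.37 to 0.42) and TUBA1B at 0.33 (0.32 to 0.34) were at least 0.32 higher, as were 3.86% of all genes. TUBB2A was the exception, at -0.12 (-0.22 to -0.03).

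Double-positive and parental cells lay close together. The summed log2 ratio was 0.034, the median of the 8 members 0.017 and that of all genes 0.026. None of the 8 was 0.32 or more higher, a size 1.44% of genes reached. TUBB2A (-0.19) and TUBB3 (-0.14) were the members furthest from 0, both lower in double-positive cells.

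How far the library differences reached depended on the depth of the cells compared. Among cells with 20000 to 40000 UMIs the summed ratios took the opposite sign, at 0.084 for double-positive over single-positive and -0.17 for single-positive over parental cells, and they were -0.087 for double-positive over parental. In that range TUBB stood at 0.038 and -0.091 in the first and second of these comparisons and TUBA1B at -0.100 in the second. TUBB3 stood at 0.14 and -0.35 and TUBA1C at 0.11 and -0.26. The makeup of the range differed, since 35.3% of its parental, 15.3% of its single-positive and 28.7% of its double-positive cells were called G2M. With the phases given equal weights within that range, an alternative chosen after the data were seen, the 3 ratios were -0.077, 0.039 and -0.038. Not every gene followed the sum there: TUBB2A (0.10), TUBB3 (0.061) and TUBB6 (0.15) stayed above 0 in the first comparison, and TUBA1C (-0.034), TUBB3 (-0.23) and TUBB6 (-0.074) below 0 in the second. The part of depth or phase in the library differences was not tested.

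**Figure D2:**
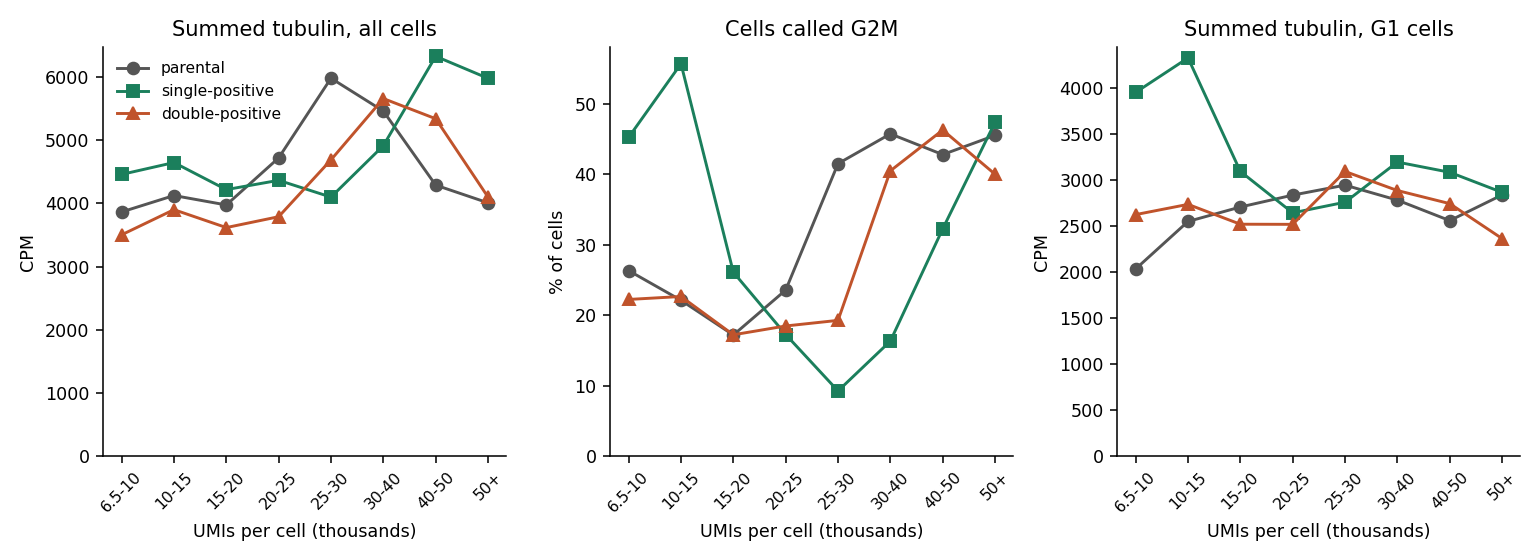
Summed tubulin CPM of all cells (left), the percentage of cells called G2M (middle) and summed tubulin CPM of G1 cells (right), by UMIs per cell, 1 line per library. From 25000 to 30000 UMIs 41.5% of parental and 9.23% of single-positive cells were called G2M, and below 15000 UMIs the single-positive G1 cells lie above those of the other libraries.

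Within single phases the 2 comparisons with single-positive cells kept their sign. The size was smaller than over all cells, except for double-positive over single-positive in S cells, where it was alike. Double-positive over single-positive ratios of summed tubulin were -0.17 in G1, -0.22 in S and -0.15 in G2M cells, and those of single-positive over parental cells were 0.16, 0.20 and 0.21. In G1 cells with at least 15000 UMIs, also chosen after the data were seen, they were -0.14 and 0.11. Double-positive over parental cells gave -0.014 in G1, -0.023 in S and 0.059 in G2M, so there the sign differed between phases. The G1 cells of 10000 to 15000 UMIs held 4330 CPM of tubulin in the single-positive library, against 2551 in the parental and 2737 in the double-positive. From 20000 to 25000 and from 25000 to 30000 UMIs the order of single-positive and parental G1 cells was the opposite, at 2645 against 2838 and 2761 against 2946 CPM.

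**Figure D3:**
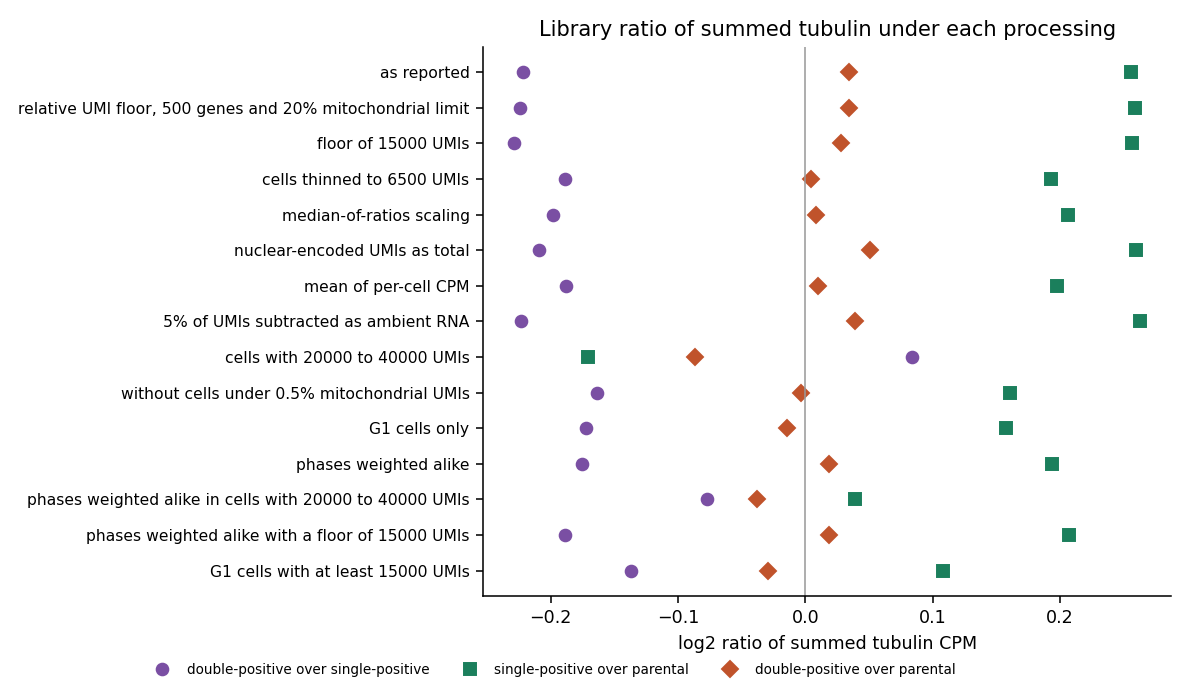
Log2 ratio of summed tubulin CPM for the 3 pairs of libraries under each way of processing, with the reported value at the top and a vertical line at 0. Single-positive over parental lies above 0 and double-positive over single-positive below 0 except among cells with 20000 to 40000 UMIs.

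Cells were then assigned to G1, S or G2M by scores of S and G2M genes that contained no tubulin. G1 held 44.4%, S 24.7% and G2M 31.0% of parental cells. The single-positive library had 36.4%, 28.97% and 34.6%, and the double-positive 41.8%, 27.8% and 30.5%. The classes are ranges of a score, and 20.0%, 28.5% and 20.5% of parental, single-positive and double-positive cells lay within 0.05 of a limit. Free RNA also enters such scores, and its part was not tested. G2M cells were split at the median mitosis score of each library into an earlier and a later group.

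Summed tubulin was more than doubled in level from G1 to G2M in every library when all its cells were taken. Parental cells held 2741 CPM in G1, 5023 in S and 6856 in G2M. Single-positive cells held 3057, 5754 and 7931 CPM and double-positive cells 2714, 4945 and 7143 CPM. In single-positive cells of few UMIs the step was smaller, at 4949 against 3956 CPM from 6500 to 10000 UMIs (38 G2M and 34 G1 cells) and 4793 against 4330 CPM from 10000 to 15000 UMIs (93 and 58 cells). Over all cells the log2 ratios of G2M over G1 were 1.32, 1.38 and 1.40, and per cell the tubulin UMIs went from 68.6 to 208 in parental, from 109.6 to 320.1 in single-positive and from 79.7 to 253.2 in double-positive cells. G2M cells were also deeper (28731 against 21168 median UMIs in the parental library), so the per-cell gain exceeds the gain in CPM.

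Of the 8 measured members, 4 were at least 1.5-fold higher in G2M than in G1 cells in all 3 libraries: TUBA1B, TUBB, TUBB4B and TUBA1C. The share of all genes was 4.88%. TUBA1B had the highest mean log2 ratio at 1.62 (1.53 to 1.71 over the libraries), followed by TUBB at 1.45, TUBB4B at 1.40 and TUBA1C at 1.22. TUBB3 came next at 0.84 and missed the limit in the single-positive library (1.44-fold), and TUBA4A had 0.64 and missed it in the parental library (1.48-fold). TUBB2A and TUBB6 lay at 0.35. TUBA1A, with under 5 CPM in every phase, gave -0.24 and intervals that included 0 in each library.

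The abundant members separated by when they were high. TUBA1B held 865, 993 and 828 CPM in G1 and 2107, 2473 and 2072 CPM in S cells of the parental, single-positive and double-positive libraries. TUBB behaved alike, with 247, 292 and 243 CPM in G1 and 549, 656 and 553 CPM in S. The mean log2 ratios of S over G1 were 1.31 for TUBA1B and 1.17 for TUBB, and from S to G2M only 0.31 and 0.28 were added. Most of the difference between G1 and G2M cells of these genes was thus already present in S cells.

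TUBA1C held 757, 807 and 750.5 CPM in G1, 1047, 1167 and 1030 CPM in S and 1740, 1927 and 1737 CPM in G2M cells of the same libraries. TUBB4B held 575, 633 and 596 CPM in G1, 931, 1044 and 930 CPM in S and 1525, 1676 and 1564 CPM in G2M. For TUBA1C the step from S to G2M (mean log2 0.74) was larger than that from G1 to S (0.49). For TUBB4B the steps were of like size, at 0.71 (S to G2M) and 0.69 (G1 to S) on average and 0.68 and 0.72 in single-positive cells. With cells scored without thinning they were 0.70 and 0.74 in parental, 0.73 and 0.72 in single-positive and 0.72 and 0.73 in double-positive cells. TUBA1C and TUBB4B were the 2 of 8 members at least 1.5-fold higher in G2M than in S cells in all libraries, where 1.21% of genes were. TUBB4B, TUBA1B and TUBB were the 3 of 8 past that fold in S over G1, against 5.35% of genes.

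**Figure D4:**
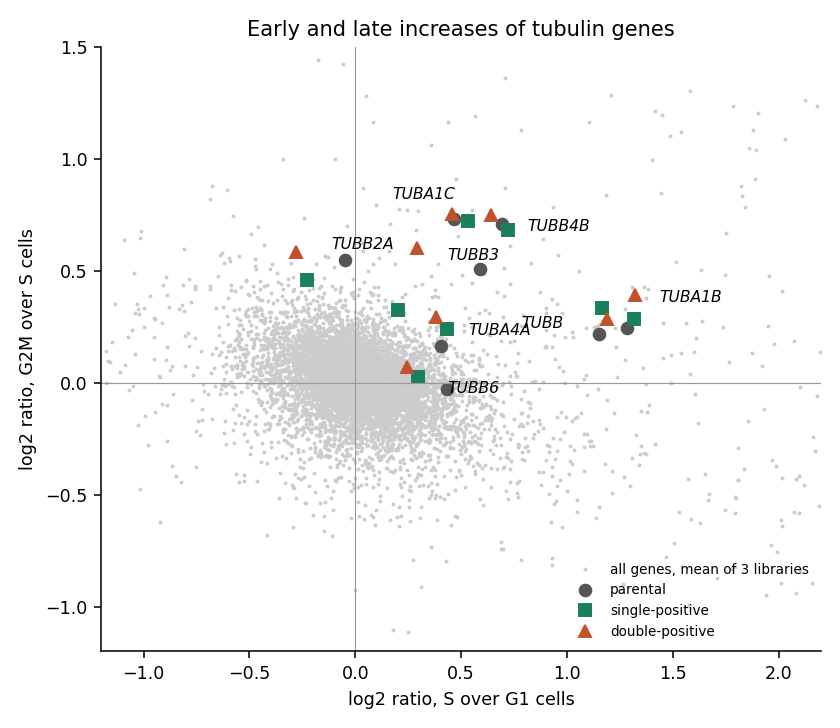
Log2 ratio of S over G1 (horizontal) and of G2M over S cells (vertical) for the 8 measured tubulin genes, 1 symbol per library, with all measured genes inside the axes as grey points at their mean over libraries. TUBA1B and TUBB lie to the right (1.31 and 1.17 on the horizontal axis), and TUBA1C and TUBB4B near the top (0.74 and 0.71 on the vertical).

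Splitting G2M widened this contrast. Later over earlier G2M cells gave a mean log2 ratio of 0.54 for TUBA1C (0.50 to 0.57 over the libraries) and 0.45 for TUBB4B (0.35 to 0.55), against 0.21 for TUBB and 0.15 for TUBA1B. In later G2M cells TUBA1C reached 2072, 2222 and 2024 CPM and TUBB4B 1816, 1879 and 1746 CPM in the parental, single-positive and double-positive libraries. TUBB6 went the other way, at -0.19 (-0.24 to -0.14).

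**Figure D5:**
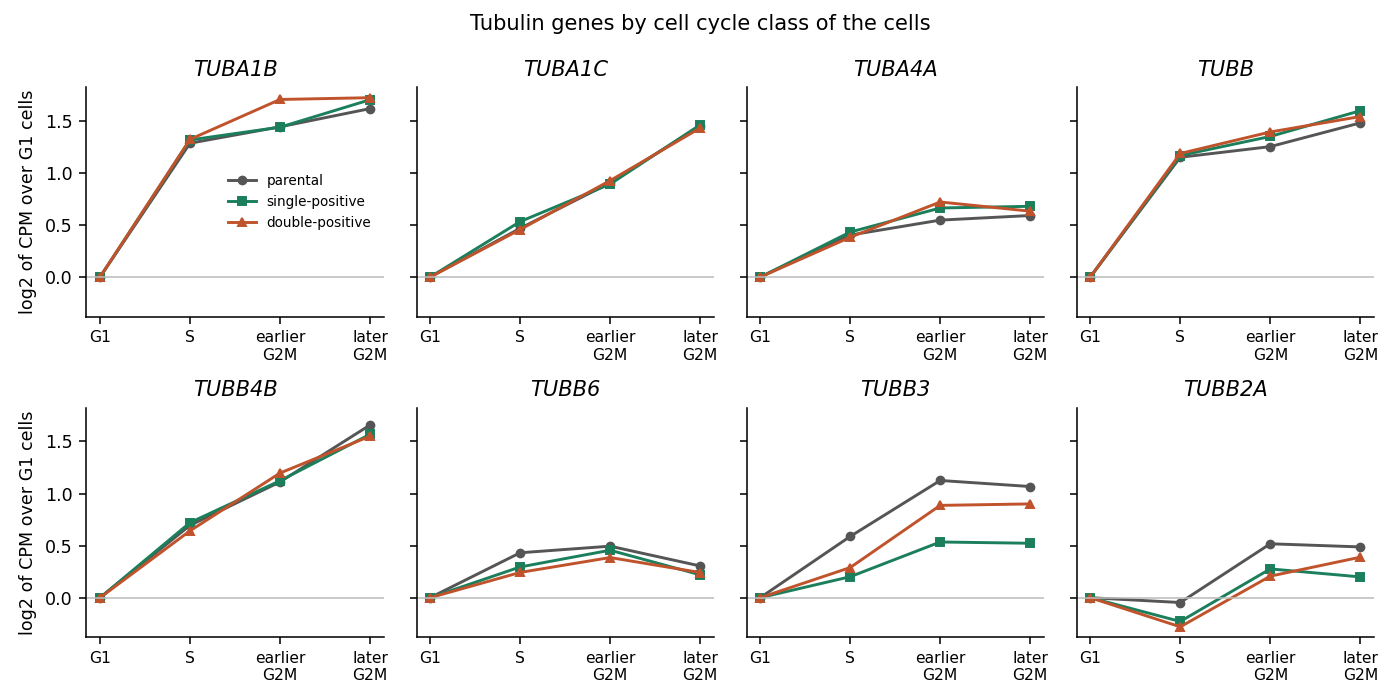
Log2 of CPM relative to G1 cells of the same library for the 8 measured tubulin genes across G1, S, earlier G2M and later G2M cells, 1 line per library. TUBA1B and TUBB step up at S, TUBA1C and TUBB4B climb through later G2M, and TUBB3 differs most between libraries.

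The ratio of the main alpha genes followed from this. There were 1.14, 1.23 and 1.10 TUBA1B UMIs per TUBA1C UMI in G1 cells of the parental, single-positive and double-positive libraries. In S cells there were 2.01, 2.12 and 2.01, and in later G2M cells 1.28, 1.45 and 1.35. The main beta genes showed the same shape: TUBB over TUBB4B was 0.430, 0.461 and 0.407 in G1, 0.589, 0.629 and 0.594 in S and 0.380, 0.471 and 0.405 in later G2M cells. In each library the S cells were the highest for both ratios. The alpha share of tubulin UMIs moved less, from 64.9% to 65.97% in G1 to 67.5% to 67.9% in S and 65.9% to 66.4% in G2M cells.

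The promoter letters can be set beside these steps. The late pair, TUBA1C and TUBB4B, named for their G2M over S ratios, were the members with TTTGAA in the nearest window, and the early pair had none. TTTGAA was also absent from the nearest windows of TUBB2A and TUBB3. Their mean log2 ratios were 0.53 and 0.48 for G2M over S cells and -0.18 and 0.36 for S over G1 cells. TUBB4B, placed in the late pair, had 0.71 for G2M over S and 0.69 for S over G1. Of 6024 measured genes with a window, 13.3% held TTTGAA in any of their windows, a wider count than the nearest window used for members. Among the 75 of them at least 1.5-fold higher in G2M than in S cells in all libraries it was 61.3%, and among the 325 at that fold in S over G1 cells 28.3%. The 75 include TUBA1C and TUBB4B themselves, and the 325 include TUBB4B, TUBA1B and TUBB. Some of these genes belong to the lists that defined the phases, so the shares are a description.

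TUBB3, the class III beta-tubulin, varied most between libraries in its phase pattern. It stood at 34.4 CPM in parental, 46.8 in single-positive and 35.0 in double-positive G1 cells. In G2M cells it stood at 73.6, 67.5 and 65.0 CPM. Log2 ratios of G2M over G1 were therefore 1.10, 0.53 and 0.89. Single-positive over parental cells gave 0.45 (0.31 to 0.58) in G1 and -0.12 (-0.23 to -0.02) in G2M, and 0.40 in G1 cells with at least 15000 UMIs.

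TUBB2A was lower in S than in G1 cells, by a mean log2 ratio of -0.18 (-0.28 to -0.05 over libraries), and higher in G2M than in S by 0.53. In the parental library the interval of S over G1 (-0.22 to 0.13) included 0. Over the phase settings and libraries run, S over G1 ranged from -0.61 to 0.24, the latter in parental cells with 20000 to 40000 UMIs. TUBB2A was the single measured member with a mean below 0 in S over G1. TUBB6 had 0.32 for S over G1 and 0.023 for G2M over S, so its small difference was in place in S cells. TUBA4A had 0.41 and 0.23.

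Some of these genes share sequence, which limits how surely a read can be placed. In the first 500 bases of the principal transcript (GENCODE 29), 25.5% of 90-base stretches of TUBA1B occur in another gene's transcripts, mostly TUBAP2, and 18.5% of those of TUBA1C occur in TUBA1A. Some of the TUBA1B stretches also occur in the members TUBA1A and TUBA1C, and some of the TUBA1C stretches in TUBA1B. The shares were 27.0% for TUBB2A (mostly TUBB2BP1), 56.7% for TUBB3 (all with AC092143.1) and 0 for TUBA1A, TUBA4A, TUBB, TUBB2B, TUBB4B and TUBB6. The sources used here do not give how reads matching several genes were counted, so TUBA1A, TUBA1B, TUBA1C, TUBB2A, TUBB2B and TUBB3 are uncertain in level.

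On GRCh38, TUBA1B lies at chromosome 12, 49127782 to 49131397 on the minus strand, and TUBA1C at 49188736 to 49274603 on the plus strand, its 5' end overlapping TUBA1A (49184796 to 49189324, minus). TUBB lies at chromosome 6, 30720201 to 30725426 (plus), TUBB4B at chromosome 9, 137241213 to 137243707 (plus), and TUBA4A at chromosome 2, 219249711 to 219278170 (minus). TUBB3 lies at chromosome 16, 89921392 to 89938761 (plus), and TUBB6 at chromosome 18, 12307669 to 12344320 (plus). TUBB2A (3153669 to 3157526) and TUBB2B (3224261 to 3231730) are neighbours on the minus strand of chromosome 6. The antisense gene RP11-386G11.10 overlaps TUBA1B and held 46.9, 68.2 and 53.9 CPM. Whether counting used strand is not given, so its reads and those of TUBA1B may have been mixed.

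Genes with the pattern most like the tubulins were sought over 12 points, the 3 libraries by G1, S, earlier and later G2M cells, among 2942 nuclear genes with at least 50 CPM. For the summed level they were MKI67 (Pearson r 0.994), PRC1 (0.992), RAD21 (0.989), DTYMK (0.987) and DDX39A (0.986). The nearest to TUBA1B was SMC4 (0.995), and the nearest to TUBB was RP11-386G11.10 (0.994). CDC20 (0.996), a driver of anaphase, was nearest to TUBA1C and TPX2 (0.995), a spindle assembly factor, to TUBB4B. MKI67, SMC4, CDC20 and TPX2 are themselves in the phase lists, and the points share libraries and phase calls.

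Within a phase, cells with more TUBA1B tended to hold more TUBA1C, TUBB, TUBB4B and TUBA4A, the members compared. Across thinned G1 cells Pearson's r between TUBA1B and TUBA1C was 0.398 in the parental (1069 cells), 0.538 in the single-positive (470) and 0.424 in the double-positive library (810). Between TUBA1B and TUBB it was 0.341, 0.461 and 0.418. In G1 cells it was lower for TUBB4B (0.301, 0.369 and 0.256) and for TUBA4A (0.215, 0.342 and 0.195). This order did not hold in every phase: in single-positive S cells TUBB4B (0.424) lay above TUBB (0.405). TUBA4A had a mean of only 1.47, 1.65 and 1.45 UMIs per thinned cell over all phases, and the part of counting noise in its lower r was not tested. These are descriptions across cells of 1 library at equal depth.

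Other genes of microtubule biology were followed in lists by function. Of 20 measured spindle assembly factors and mitotic kinesins, 18 were at least 1.5-fold higher in G2M than in G1 cells in all libraries, beside 4.88% of all genes (median log2 3.05, with 0.031 for all genes). NUSAP1 had 3.78, ASPM 3.68 and CENPE 3.57, and 10 of the 20 are in the phase lists. Genes of the gamma-tubulin ring, which seeds microtubules, passed in 5 of 11 (median 0.46): TUBG1 had 1.13, MZT1 1.09 and CDK5RAP2 0.94. Destabilisers and severing proteins passed in 4 of 8 (median 0.84), among them KIF2C, a phase-list gene, at 3.57, KIF18A at 2.29 and STMN1, which sequesters dimers, at 1.37.

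The lists for folding, regulating and modifying tubulin held few or no genes past that limit, and the all-gene share of 4.88% leaves little to read from such counts. Of the 15 CCT chaperonin and prefoldin genes 0 passed (median 0.13), with TCP1 at 0.32, CCT6A at 0.29 and CCT5 at 0.28. Folding cofactors passed in 1 of 5, TBCD at 0.76, beside ARL2 at 0.11 and TBCC at -0.044. Of 12 genes of tubulin mRNA autoregulation 0 passed (median 0.15), with CNOT10 at 0.30, RQCD1 at 0.24 and CNOT7 at 0.22. Of 5 tubulin modifying enzymes 0 passed (median 0.13), with TTLL12 at 0.33, TTLL5 at 0.32 and the deacetylase SIRT2 at -0.17.

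Counts near the 4.88% of all genes came from 2 further lists. Stabilisers and plus-end proteins passed in 1 of 15, the phase-list gene CKAP5 at 1.39, while MAP1B had -0.62 and MAPRE3 -0.55. Interphase kinesin and dynein genes passed in 1 of 21, NDE1 at 0.91, beside NDEL1 at -0.26 and DYNC1LI1 at 0.23. The actins, subunits of the other main filament, were at -0.19 (ACTG1) and -0.073 (ACTB) in G2M over G1 cells. Of the 12 further tubulin genes only TUBG1 (58.7, 66.5 and 58.6 CPM) and TUBE1 (13.4, 13.1 and 15.0 CPM) reached 10 CPM. TUBA3D, TUBA3E and TUBB8 had 0 UMIs in cells of all libraries.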

How the data were processed

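Counts of UMIs per gene and barcode were deposited unfiltered, with 737280 barcodes per library, and per the file headers were written by Cell Ranger. Build GRCh38, Seurat 4.0.6 and Cell Ranger 4.0.0 are named by the submitters' processing notes. Which annotation release was used is not stated in those notes or in the headers. Libraries held 65107147 (parental), 51637677 (single-positive) and 62517276 (double-positive) UMIs.

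Members and gene lists were chosen with earlier results of these data known. Cells had at least 6500 UMIs. No doublet was removed and no doublet caller was run, since the double-positive gate selects paired signals. UMIs were summed per library or phase and scaled to CPM, with exact Poisson, Clopper-Pearson or conditional binomial intervals at 95%. Log2 differences of at least 0.32 between libraries and folds of at least 1.5 in all 3 libraries between phases were counted among genes with a mean of 10 CPM.

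Phases were scored with scanpy 1.11.5 on cells thinned to 6500 UMIs, from 43 S and 53 G2M genes, with tubulins removed from lists and control genes. G1 had both scores at or below 0; otherwise the higher score named the phase. All 10 members were described. From each other list up to 3 members were named, those with the largest mean absolute log2 ratio of G2M over G1 over the libraries. Also named were the 5 genes most alike for the sum and the first for each abundant member, the latter chosen after their values were seen. Gene positions came from GENCODE 29, which matched 33132 features by ID, and promoters from RefSeq, where all 10 members matched. Ratios between libraries were recomputed under 11 other settings (cell call, depth, scaling, weighting, free RNA, phase) and 3 added after seeing the data, and those between phases under 8. Ratio steps were tested on simulated data. Computation ran in Python 3.11.15 with pandas 2.3.3, scipy 1.17.1, numpy 2.4.6 and matplotlib 3.10.9.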

Additional observations from a re-analysis of the deposited data

Results flagged for a closer look

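Some tubulin ratios between libraries had opposite signs in different phases, each with a counting interval that left out 0. None of these differences between phases was tested, and each rests on 1 library per group. For TUBB3, single-positive over parental cells gave a log2 ratio of 0.45 in G1 and -0.12 in G2M. The other cases compare double-positive with parental cells and are small. TUBA1B stood at -0.062 in G1, -0.025 in S and 0.12 in G2M, and TUBA4A at -0.069 in S and 0.059 in G2M. The alpha genes summed gave -0.039 in G1, -0.028 in S and 0.071 in G2M, and all tubulins summed -0.023 in S and 0.059 in G2M.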

How the results depend on the processing

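The ratios of summed tubulin were moved beyond their counting interval by most alternatives, and the cause was not tested. In the order double-positive over single-positive, single-positive over parental and double-positive over parental, the log2 ratios were -0.19, 0.19 and 0.0045 with cells thinned to 6500 UMIs, -0.20, 0.21 and 0.0083 with median-of-ratios scaling and -0.19, 0.20 and 0.010 from the mean of per-cell CPM. They were -0.16, 0.16 and -0.0032 without cells under 0.5% mitochondrial UMIs, -0.17, 0.16 and -0.014 in G1 cells and -0.18, 0.19 and 0.018 with phases weighted alike. Cells with 20000 to 40000 UMIs gave 0.084, -0.17 and -0.087. Of the alternatives added after seeing the data, phases weighted alike gave -0.077, 0.039 and -0.038 in that UMI range and -0.19, 0.21 and 0.018 at a floor of 15000 UMIs, and G1 cells with at least 15000 UMIs gave -0.14, 0.11 and -0.029. With nuclear-encoded UMIs as the total, the ratio was -0.21 for double-positive over single-positive and 0.050 for double-positive over parental cells. Among single genes, 3 ratios of at least 0.32 in size changed sign, all in cells with 20000 to 40000 UMIs: TUBB at 0.038 (double-positive over single-positive) and -0.091 (single-positive over parental), and TUBA1B at -0.100 (single-positive over parental).

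The log2 ratios of G2M over G1 for the sum stayed between 1.17 and 1.60 in every alternative run. In the order parental, single-positive and double-positive they were 1.38, 1.46 and 1.43 when cells were scored without thinning, 1.53, 1.60 and 1.60 without cells within 0.05 of a phase limit, 1.253, 1.22 and 1.24 with phase lists without microtubule genes and 1.45, 1.36 and 1.42 among cells with 20000 to 40000 UMIs. For parental and single-positive cells they were 1.31 and 1.46 at a floor of 15000 UMIs, 1.40 and 1.17 in thinned cells and 1.44 and 1.33 without cells under 0.5% mitochondrial UMIs. Over the phase settings and libraries run for single genes, G2M over S ranged from 0.66 to 0.87 for TUBA1C, from 0.66 to 0.83 for TUBB4B, from 0.20 to 0.44 for TUBA1B and from 0.17 to 0.39 for TUBB. The range of S over G1 was 0.41 to 0.60 for TUBA1C and 0.56 to 0.83 for TUBB4B. No paired analysis was possible because each group has 1 library. Counting error limits TUBA1A and TUBB2B most.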
